A study of Mus musculus with 8 samples.

Results

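The genes described here build and fill the MHC class I complex in B16F1 melanomas: the class I heavy chains H2-K1 and H2-D1, the light chain B2m, the peptide transporter genes Tap1 and Tap2, the loading protein gene Tapbp, the immunoproteasome genes Psmb8, Psmb9 and Psmb10, and the class I transactivator gene Nlrc5. They were chosen by name, and each was read by its brightest probe set among those that the array annotation assigns to that gene alone. All 10 were found among the 18193 genes of the array, and all 10 passed the filter on dim genes that left 11345 genes for testing. The other probe sets of each member served as a check.

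MHC class I molecules show fragments of a cell's own proteins at its surface, where CD8 T cells and natural killer cells read them. The proteasome cuts proteins into peptides, the TAP transporter carries the peptides into the endoplasmic reticulum, and tapasin holds an empty class I molecule beside the transporter until a peptide fits. Interferons and TNF are known to raise many of these genes together, and B16 melanoma is known for low class I levels that interferon gamma can raise.

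B16F1 cells, a mouse melanoma line, were injected under the skin of the right hind limb. The hosts were C57BL/6-NCr mice (WT) or B6;129S-Tnfrsf1a tm1Imx Tnfrsf1b tm1Imx/J mice, which carry disrupted genes for TNF receptors 1 and 2 in all their cells (TNFR KO). Hosts were 8 to 12 weeks old when the work began, 5 to 7 mice of each kind were injected, and tumours measured 268 to 478 cubic mm before treatment. Tumours were left untreated or received a single 20 Gy dose of X-rays to the tumour-bearing limb, and were excised 5 h after treatment, giving an untreated and an irradiated group in each host. The tumour cells were the same in all 4 groups and kept their own receptor genes, so the host tissue alone differed in genotype.

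Whole-tumour RNA of each group was pooled, and every one of the 4 pools was hybridised in duplicate to Affymetrix whole-genome mouse arrays. A ± after a signal is the SD of these duplicate arrays (n = 2). With 1 pool per group, p-values for single-pool comparisons measure the spread between duplicate arrays and not the spread between mice. The hosts also differ in strain background and breeder, which cannot be told apart from the receptors. In RNA of whole tumours, fewer cells of a type and less RNA per cell cannot be told apart.

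Of the members, 7 lie on mouse chromosome 17, in and beside the major histocompatibility complex (RefSeq annotation of GRCm38.p6). From the lowest coordinate these are Tapbp (chr17:33919478-33929290), H2-K1 (chr17:33996012-34000619), Psmb9 (chr17:34182030-34187330), Tap1 (chr17:34187556-34197225), Psmb8 (chr17:34198195-34201454), Tap2 (chr17:34204479-34216321) and H2-D1 (chr17:35263094-35267497). The others are B2m (chr2:122147687-122153082), Nlrc5 (chr8:94434335-94527272) and Psmb10 (chr8:105935728-105938392).

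RefSeq promoter windows, from 250 bases before a start site to 50 after it, were matched for 8 of the 10 members; Tap2 and Nlrc5 were without one. Each window was searched on both strands for an interferon response element core (GAANNGAAA), a kB site as bound by NF-kB proteins and a gamma activation site (TTCNNNGAA). Among all 32851 mouse windows, 7.52% held the first, 4.79% the second and 8.3% the third. Matches were found for 4 members. The stretches around them are shown because the radiation response of all 4 of these genes differed between hosts. The responses of Tapbp, Psmb9 and Psmb10 differed too, and their windows held no match. A link between matches and response was not tested. The matched letters are in capitals, 5′ to 3′ on the gene's strand.
H2-K1: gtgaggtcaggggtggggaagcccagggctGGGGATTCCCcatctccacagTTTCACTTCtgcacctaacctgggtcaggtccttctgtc
H2-D1: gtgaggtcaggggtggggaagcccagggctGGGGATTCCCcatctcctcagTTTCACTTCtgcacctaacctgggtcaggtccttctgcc
B2m: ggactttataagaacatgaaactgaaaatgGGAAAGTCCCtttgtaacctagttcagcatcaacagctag
Psmb8: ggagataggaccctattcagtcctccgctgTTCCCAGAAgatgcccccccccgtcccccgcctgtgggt

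The H2-K1 stretch is chr17:34000399-34000488 on the minus strand and the H2-D1 stretch is chr17:35262893-35262982 on the plus strand. In both, the first run of capitals is the kB site and the second is the response element core, read on the opposite strand. Over 90 bases they differ at 2 positions, A48T and T89C, with the H2-K1 base first and positions counted from the 5′ end of the stretch. The kB site began 111 bases before the annotated start of H2-K1 (125 before a second annotated start) and 171 before that of H2-D1, and the core began 21 bases after it in each. The spacing was searched for after it had been seen here. It occurred in 5 of 32851 windows (0.0152%), those of H2-K1, H2-D1, H2-Q4 and H2-Q6, all class I heavy chain genes, whereas 0.417% of windows held both motifs at any spacing. The B2m stretch (chr2:122147531-122147600) held a kB site on the opposite strand, 126 bases before the start, and the Psmb8 stretch (chr17:34198068-34198136) a gamma activation site 97 bases before it. The B2m stretch also held gaaactgaaa, in which GAA and GAAA lie farther apart than in the searched letters GAANNGAAA. The search covered that spacing alone. Response elements with another spacing were counted neither in the members nor in the share of all windows. A match of letters is a description and not evidence that a factor was bound.

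Tap1 and Psmb9 start from one short interval and are read in opposite directions, so the bases between their start sites are shown as well, a choice made after their values were known. The interval of 225 bases is chr17:34187331-34187555 on the plus strand, with Psmb9 beginning to its left and Tap1 to its right. Neither gene's window held an exact match to the letters of any of the 3 motifs. Variants of these sites were not searched for, so their absence was not tested.
between Psmb9 and Tap1: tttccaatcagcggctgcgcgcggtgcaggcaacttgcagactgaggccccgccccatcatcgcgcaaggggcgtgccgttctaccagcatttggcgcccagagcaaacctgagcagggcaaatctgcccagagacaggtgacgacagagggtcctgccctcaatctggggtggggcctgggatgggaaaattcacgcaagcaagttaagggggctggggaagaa

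**Figure D1:**
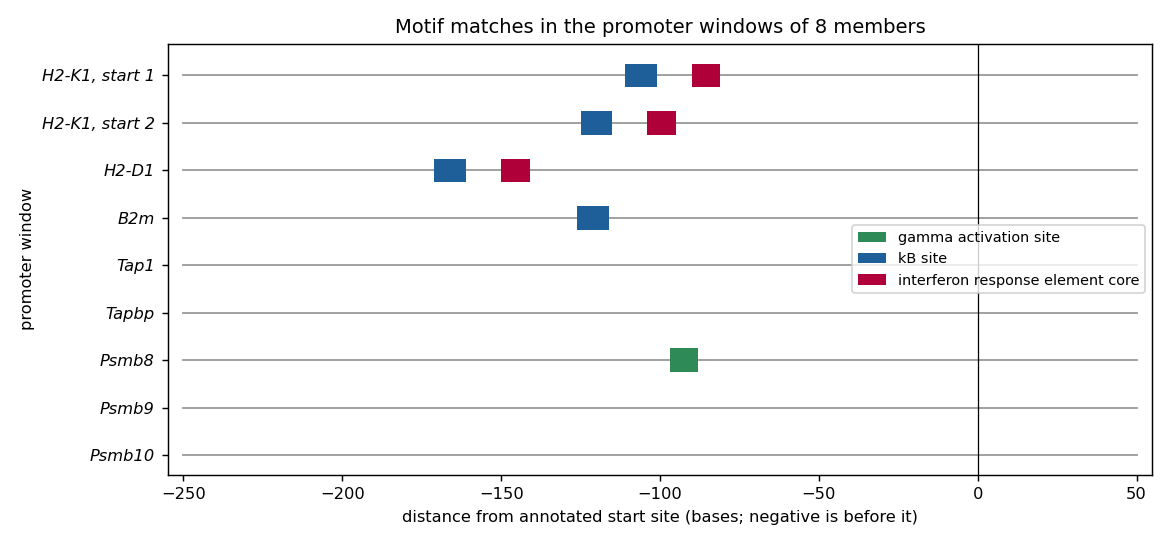
Positions of motif matches in 9 promoter windows of 8 members. Each line is a window drawn by distance from the annotated start site in bases. Coloured boxes are exact matches to the searched letters on either strand, and variants are not drawn. H2-K1 (at both annotated starts) and H2-D1 carry the same pair of boxes, and the windows of Tap1, Tapbp, Psmb9 and Psmb10 carry none.

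Duplicate arrays correlated at 0.975 to 0.981 over probe sets, and every array had a 2%-trimmed mean signal of 500. Poly-A spike-in transcripts, which are added to RNA before labelling, averaged at least 2497 on every WT array and at most 25.4 on every TNFR KO array. A host difference thus cannot be told apart from one of target preparation. Within WT hosts, these spike-ins were also brighter on the irradiated than on the untreated arrays, by 1.73 times for dap, 1.94 for lys, 2.09 for thr and 2.25 for phe, so thr and phe passed the 2-fold mark that is used for the members in that comparison. The hybridisation controls bioB and cre, added later, were 1.25 and 1.27 times as bright. In TNFR KO hosts these 2 controls were 1.12 and 1.11 times as bright on the irradiated arrays. The signal of 18S ribosomal RNA was 1.16 times as high in the irradiated as in the untreated pool in WT hosts and 1.79 times in TNFR KO hosts, and the actin 5′ to 3′ ratio lay between 0.731 and 0.797 in the 4 pools. The part of these differences in the results below was not tested. Markers of the melanocyte lineage were present in every pool: Pmel, Tyr, Tyrp1, Dct, Mlana and Slc45a2 each read at least 15354 in every pool. The 9 listed markers, of which these are the bright ones, summed to 165340 to 200950 per array. Mitf, the transcription factor of this lineage, was on the same list and differed between pools, at 12313 and 8186 in WT hosts and 6009 and 4886 in TNFR KO hosts, without and with radiation. It was lower in TNFR KO hosts over both treatments (-0.89, adjusted p = 0.00317) and called lower in untreated tumours (-1.03, adjusted p = 0.000181).

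Signals are MAS5 signals on a linear scale, and differences are of log2(signal + 16), given with the standard error of limma. Signals of different genes depend on their probes and are not compared with each other. "Rose" and "fell" are used for a Benjamini-Hochberg adjusted p under 0.05 over all 11345 genes, and "called" for single-pool comparisons that also reached 2-fold.

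In WT hosts most of the class I and peptide loading genes rose by 5 h after 20 Gy. All 10 members were higher in the irradiated pool, without overlap between the arrays, where 31.3% of all tested genes were higher and 36.4% lower without overlap. By the test, 9 of the 10 rose and none fell (background 12.1% higher and 13.4% lower). Nlrc5, Tap1, Psmb8 and Psmb9 were called as more than 2-fold higher, with none lower, against a background of 2.25% higher and 0.203% lower. With arrays centred on their median, which moved the median of all genes by -0.26 in this comparison, 2 were called. The median difference of the members was 0.69, against -0.02 over all genes tested. In TNFR KO hosts the median was 0.08, against -0.02; Tap1 alone was called higher and no member lower (background 0.881% and 0.485%). Without the fold threshold Tap1, Nlrc5 and Psmb9 rose and Tapbp fell (9.43% and 14.4%). The arrays did not overlap for 6 members that were higher and 1 that was lower there (30.9% and 35.7% of all genes).

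Nlrc5 drives transcription of class I genes and of their partners. On the WT arrays it read 328 and 349 untreated and 1038 and 856 irradiated. On the TNFR KO arrays it read 526 and 412 untreated and 766 and 706 irradiated. The irradiated arrays were above the untreated ones in both hosts, and the WT untreated pool was the lowest of the 4. The rise was 1.44 ± 0.14 on the log2 scale in WT hosts (adjusted p = 0.00254) and 0.64 ± 0.14 in TNFR KO hosts (adjusted p = 0.0255). The latter was no longer past the threshold without TNFR KO irradiated replicate 1 (0.58), TNFR KO irradiated replicate 2 (0.70) or TNFR KO untreated replicate 2 (0.47). The difference between these effects, -0.80 ± 0.20, missed the threshold (adjusted p = 0.0631).

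H2-K1 and H2-D1 encode the heavy chains that hold the peptide. H2-K1 read 9854 and 10012 on the WT untreated arrays, 15795 and 15403 on the WT irradiated, 12106 and 12271 on the TNFR KO untreated and 12926 and 12624 on the TNFR KO irradiated arrays. H2-D1 read 12133 and 12484, 19003 and 18655, 15008 and 15657, and 16239 and 15389 in the same order. For both genes the WT untreated pool was lowest, the WT irradiated pool highest and the TNFR KO pools lay between them; the TNFR KO arrays overlapped between treatments for H2-D1 and not for H2-K1.

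In WT hosts H2-K1 rose by 0.65 ± 0.05 (adjusted p = 0.00142) and H2-D1 by 0.61 ± 0.06 (adjusted p = 0.00244). In TNFR KO hosts the differences were 0.07 ± 0.05 (adjusted p = 0.394) and 0.04 ± 0.06 (adjusted p = 0.62), and quantile normalization turned both below 0 (-0.03 and -0.07). The radiation effects differed between hosts by -0.58 ± 0.08 for H2-K1 (adjusted p = 0.0133) and -0.57 ± 0.08 for H2-D1 (adjusted p = 0.0187). Untreated tumours of TNFR KO hosts were above those of WT hosts, by 0.29 (adjusted p = 0.0056) and 0.32 (adjusted p = 0.00661), and irradiated ones below, by -0.29 (adjusted p = 0.00539) and -0.25 (adjusted p = 0.0138).

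These genes have near-identical relatives, so their probe sets can read each other's transcripts. H2-K1 had 3 further probe sets naming it alone at the level tested, and their differences in WT hosts were 0.93, 1.82 and 1.04, larger than on the brightest. Their untreated host differences (0.66, 1.02 and 0.72) and differences between radiation effects (-1.05, -2.19 and -0.90) were also larger in size. Calls of members rest on the brightest probe set alone. The probe set with 1.82 read 1192 ± 158 untreated and 4235 ± 261 irradiated in WT hosts, and 2440 ± 341 and 1903 ± 420 in TNFR KO hosts. By limma over all probe sets at the level tested, its -2.19 had an adjusted p of 0.0138 and its 1.02 one of 0.00655. H2-D1 had 5 further such probe sets, with differences of 0.35 to 2.32 in WT hosts; 4 of the 5 had a smaller radiation effect in TNFR KO hosts. The exception was dim, at 96.6 ± 49.9 and 124 ± 48.7 in WT hosts and 74.6 ± 13.6 and 134 ± 15.1 in TNFR KO hosts, and its effects differed by 0.39 (adjusted p = 0.677).

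B2m encodes beta-2 microglobulin, the light chain shared by class I molecules. It read 20044 and 20885 on the WT untreated arrays, 29870.2 and 29288 on the WT irradiated, 20642 and 20927 on the TNFR KO untreated and 20738 and 20936 on the TNFR KO irradiated arrays. The WT irradiated pool stood alone, and the other 3 pools overlapped. B2m rose by 0.53 ± 0.05 in WT hosts (adjusted p = 0.00283), a value that quantile normalization lowered to 0.23. In TNFR KO hosts the difference was 0.0037 ± 0.055 (adjusted p = 0.968), and it was below 0 with quantile normalization and with arrays centred on the median (-0.12 and -0.03). A second probe set gave 0.47 in WT and -0.07 in TNFR KO hosts.

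Tap1 encodes one chain of the peptide transporter. It read 983 and 1040 on the WT untreated arrays, 2863 and 2714 on the WT irradiated, 1068 and 1089 on the TNFR KO untreated and 2429 and 2284 on the TNFR KO irradiated arrays. Both irradiated pools were more than 2-fold above both untreated pools. Tap1 rose by 1.45 ± 0.07 in WT hosts (adjusted p = 0.000296) and by 1.12 ± 0.07 in TNFR KO hosts (adjusted p = 0.000897), and the difference between them, -0.33 ± 0.09, missed the threshold (adjusted p = 0.0781). It was the one member called in both hosts. Its 3 further probe sets were below the level tested, so they gave no second reading.

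Tap2, the other chain of the transporter, passed no test. It read 322 and 278 on the WT untreated arrays, 338 and 406 on the WT irradiated, 305 and 363 on the TNFR KO untreated and 324 and 315 on the TNFR KO irradiated arrays. Its arrays overlapped between treatments in TNFR KO hosts and not in WT hosts. The radiation difference was 0.29 ± 0.13 in WT hosts (adjusted p = 0.144) and -0.06 ± 0.13 in TNFR KO hosts (adjusted p = 0.778).

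Tapbp encodes tapasin, the protein that bridges the transporter and the class I molecule, and it had a pattern of its own. It read 2797 and 2525 on the WT untreated arrays, 3726 and 3970 on the WT irradiated, 5711 and 5895 on the TNFR KO untreated and 3378 and 3425 on the TNFR KO irradiated arrays. The TNFR KO untreated pool was the highest and the WT untreated pool the lowest. Tapbp rose by 0.53 ± 0.07 in WT hosts (adjusted p = 0.00625) and fell in TNFR KO hosts, by 0.77 ± 0.07 (adjusted p = 0.0028). Untreated tumours of TNFR KO hosts were called 2.18-fold higher than those of WT hosts (1.12 ± 0.07, adjusted p = 0.000186).

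The difference between the radiation effects on Tapbp was -1.30 ± 0.10 (adjusted p = 0.00306), the one member called in that comparison on its brightest probe set. Its second probe set, read at 310 ± 8.91, 416 ± 27.1, 505 ± 60.5 and 393 ± 42.6 in WT hosts without and with radiation and then in TNFR KO hosts likewise, moved the same way with smaller differences (0.41 in WT hosts, -0.35 in TNFR KO hosts and -0.76 between them). That last difference had an adjusted p of 0.052 by limma over all probe sets at the level tested.

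Psmb8, Psmb9 and Psmb10 encode the catalytic subunits that replace the standard ones in the immunoproteasome. Psmb8 read 1217 and 1362 on the WT untreated arrays, 2774 and 2899 on the WT irradiated, 1057 and 1061 on the TNFR KO untreated and 1248 and 1201 on the TNFR KO irradiated arrays. Psmb9 read 1198 and 1235, 2661 and 2647, 791 and 879, and 1106 and 1194 in the same order. For both genes the WT irradiated pool was more than 2-fold above every TNFR KO array, and the TNFR KO irradiated pool did not reach the mean of the WT untreated pool.

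Psmb8 rose by 1.13 ± 0.07 in WT hosts (adjusted p = 0.000732), against 0.21 ± 0.07 in TNFR KO hosts (adjusted p = 0.0902), and these effects differed by -0.92 ± 0.10 (adjusted p = 0.0093). Psmb9 rose by 1.12 ± 0.07 in WT hosts (adjusted p = 0.000815) and by 0.45 ± 0.07 in TNFR KO hosts (adjusted p = 0.0108), and these effects differed by -0.66 ± 0.11 (adjusted p = 0.0221). The rise of Psmb9 in TNFR KO hosts was lost without TNFR KO irradiated replicate 2 (0.40) or TNFR KO untreated replicate 1 (0.38). Both genes were lower in TNFR KO hosts at each treatment. Untreated, the differences were -0.28 for Psmb8 (adjusted p = 0.0215) and -0.54 for Psmb9 (adjusted p = 0.00207). Irradiated, both were called lower, at -1.20 (adjusted p = 0.000141) and -1.20 (adjusted p = 0.000153).

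Psmb10 read 2321 and 2298 on the WT untreated arrays, 3890.2 and 3825 on the WT irradiated, 2566 and 2471 on the TNFR KO untreated and 2620 and 2779 on the TNFR KO irradiated arrays. The WT irradiated pool was again apart from the other 3. Psmb10 rose by 0.74 ± 0.06 in WT hosts (adjusted p = 0.00135), against 0.10 ± 0.06 in TNFR KO hosts (adjusted p = 0.267), and these effects differed by -0.64 ± 0.08 (adjusted p = 0.0138). Psmb5, Psmb6 and Psmb7, the subunits of the standard proteasome that these replace, did not share the pattern of values. Their radiation differences were 0.16, 0.26 and 0.10 in WT hosts and 0.29, 0.43 and 0.22 in TNFR KO hosts, none was called, and the differences between hosts (0.14, 0.16 and 0.12) missed the threshold. Without the fold threshold Psmb6 rose in both hosts and Psmb5 in TNFR KO hosts.

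**Figure D2:**
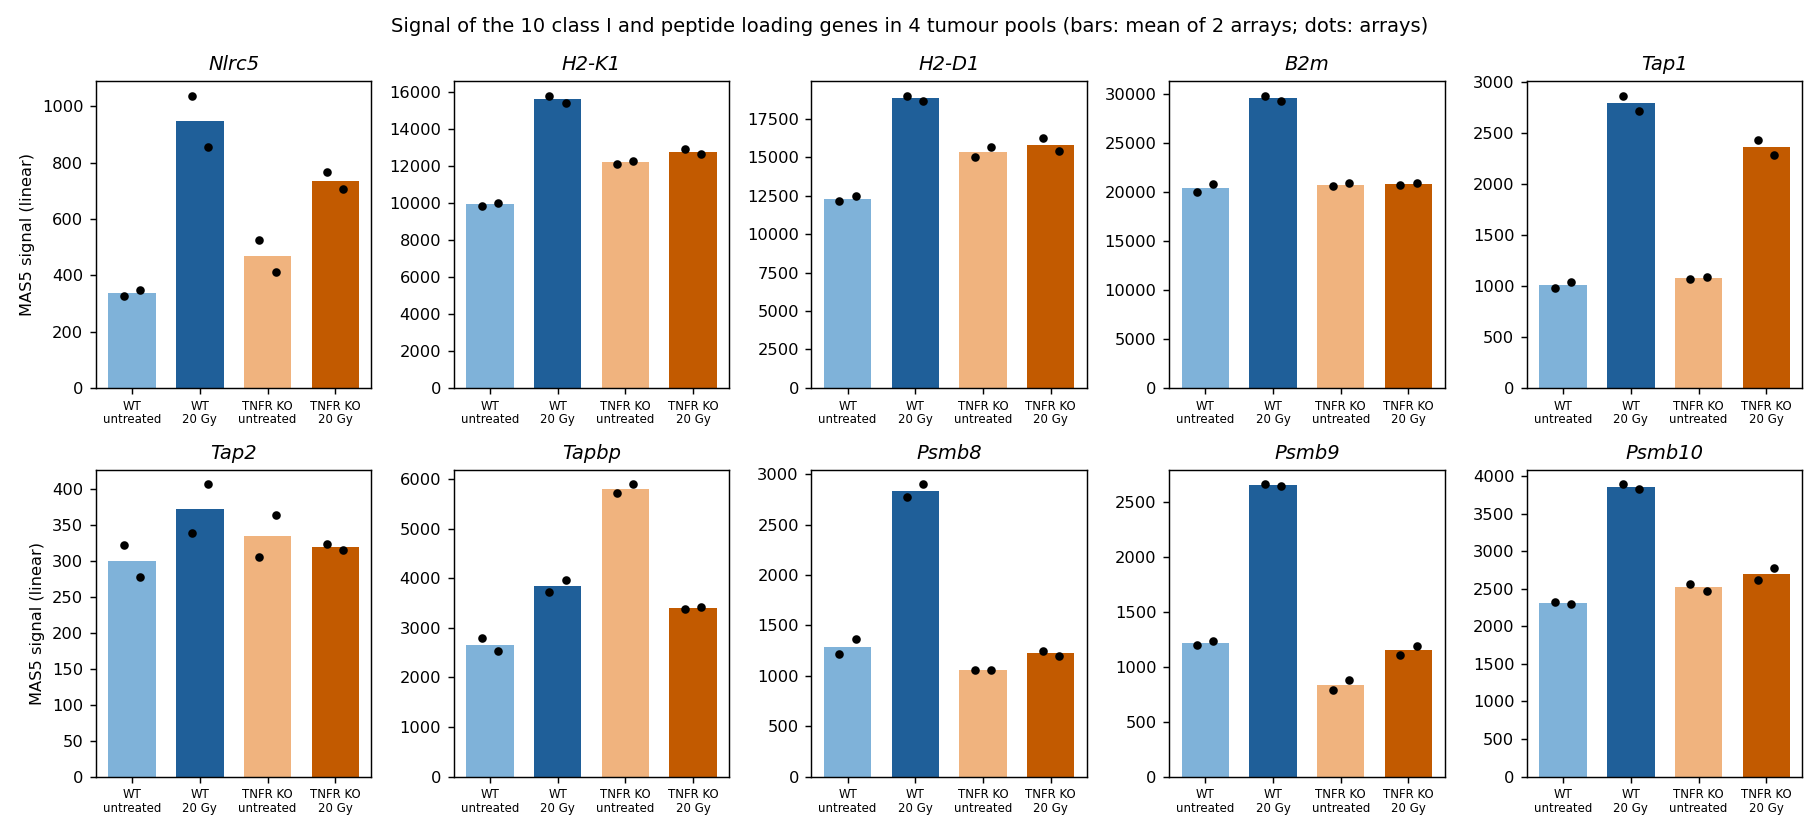
MAS5 signal (linear scale from 0) of the 10 members in the 4 pools. Bars are means of 2 arrays and dots the arrays; for every member except Tapbp the WT irradiated pool has the highest mean, and for Tapbp the TNFR KO untreated pool has it.

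All 10 members had a smaller radiation difference in TNFR KO than in WT hosts, between -1.30 (Tapbp) and -0.33 (Tap1), with a median of -0.61 against -0.01 over all genes tested. Tapbp was called lower and no member higher (background 2.05% lower and 0.159% higher). Without the fold threshold 7 members passed as lower, namely Tapbp, Psmb8, Psmb9, Psmb10, B2m, H2-K1 and H2-D1, and none as higher (6.04% and 3.52%). Leaving out 1 array left between 2 and 5 of the 7, whichever array it was. Tapbp and Psmb8 passed in each of these 8 fits. B2m passed in none (-0.56 to -0.50), H2-D1 (-0.61 to -0.53) and Psmb9 (-0.74 to -0.59) were lost in 7, Psmb10 (-0.68 to -0.59) in 5 and H2-K1 (-0.60 to -0.56) in 4.

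Of the 10 further probe sets at the level tested, all 10 had the sign of their gene's brightest probe set for radiation in WT hosts, 5 for radiation in TNFR KO hosts and 9 for the difference between these effects.

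**Figure D3:**
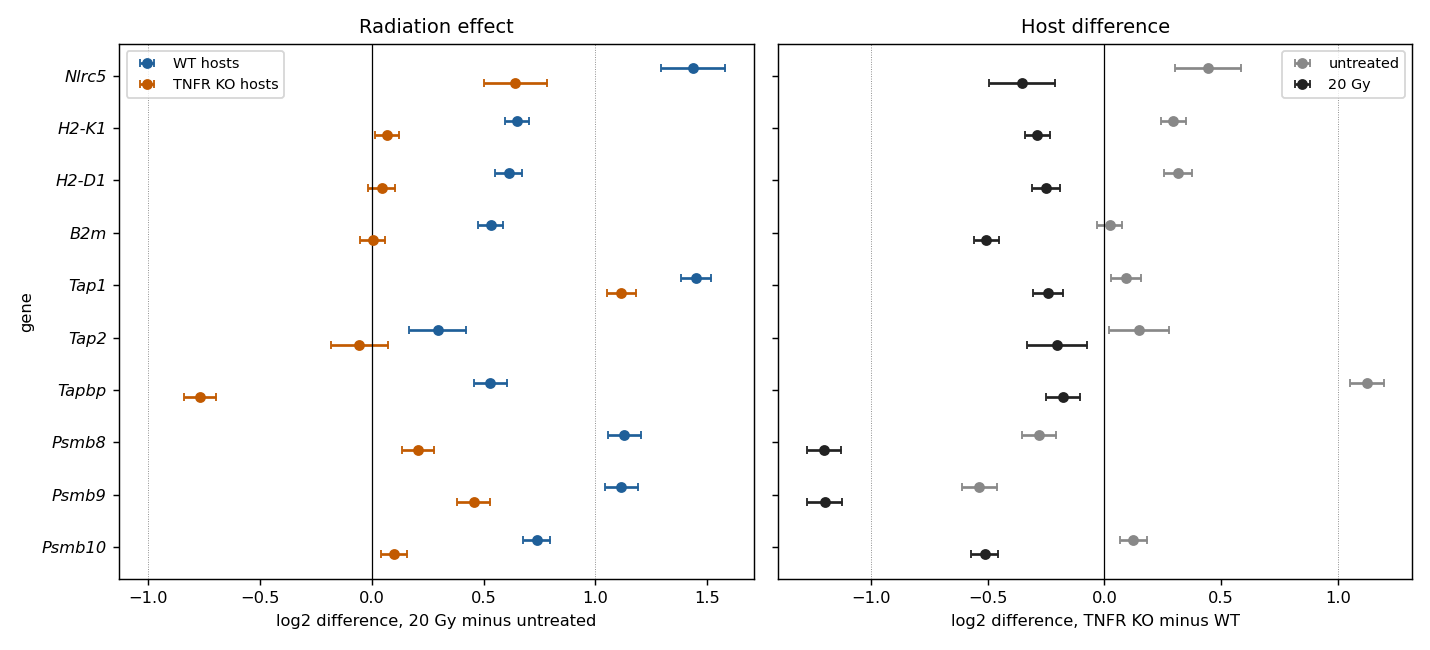
Log2 differences of the 10 members with the standard error of limma: irradiated minus untreated in each host (left) and TNFR KO minus WT at each treatment (right). Dotted lines mark 2-fold. Every member has a larger radiation effect in WT hosts, and after irradiation every member lies below 0 on the right.

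**Figure D4:**
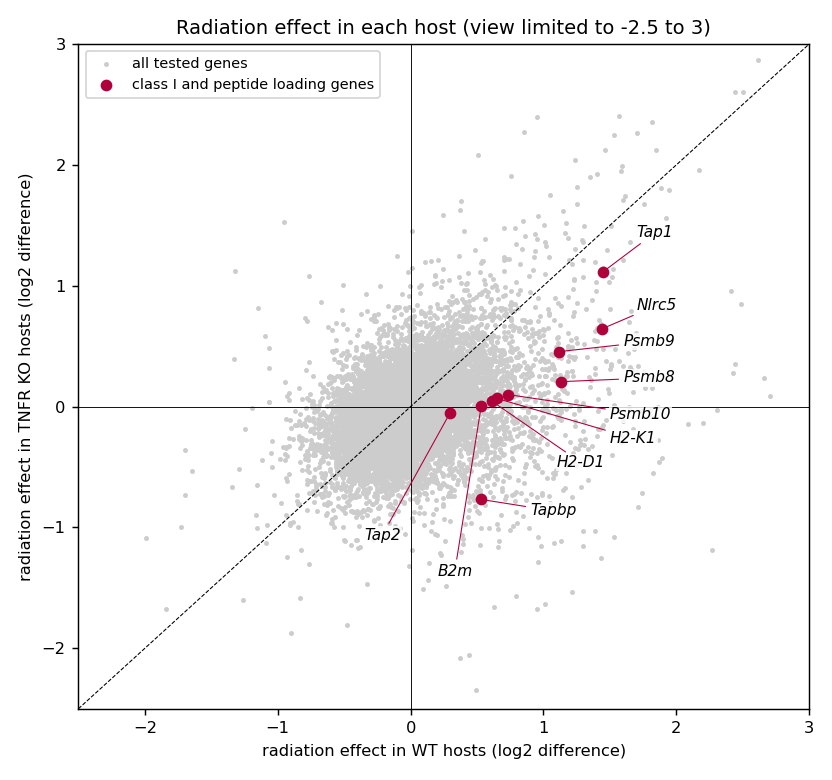
Radiation effect in WT hosts (horizontal axis, log2 difference) and in TNFR KO hosts (vertical axis) for all 11345 tested genes, with the members in red; genes beyond the axes are not drawn. The dashed line marks equal effects, and all 10 members lie below it, Tap1 nearest to it and Tapbp farthest.

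Comparing the hosts, untreated tumours had members on both sides of 0, with a median of 0.14 against 0.08 over all genes. Tapbp was called higher and none lower (background 2.06% and 6.25%); without the fold threshold H2-K1, H2-D1, Nlrc5 and Tapbp passed as higher and Psmb8 and Psmb9 as lower (26.4% and 23.8%). The arrays did not overlap for 6 higher and 2 lower members (44% and 34.1% of all genes). When arrays were centred on their median, Tapbp alone stayed among the higher ones. Without one array Nlrc5 (0.44) was lost in 5 of 8 fits, down to 0.27 without TNFR KO untreated replicate 1, and Psmb8 in 3, at -0.28 without either TNFR KO untreated array and -0.20 without WT untreated replicate 2. In irradiated tumours all 10 members were lower in TNFR KO hosts, with a median of -0.32 against 0.06. Psmb8 and Psmb9 were called lower and none higher (7.43% and 0.793%). Without the fold threshold 7 members passed as lower and none as higher, where 27.3% of all tested genes passed as lower and 28.4% as higher. The arrays of the hosts did not overlap for any of the 10, as for 35.5% of all genes lower and 42% higher. Of the 7 that passed, Tap1 and H2-D1 were lost without TNFR KO irradiated replicate 2 (-0.20 and -0.21) and without WT irradiated replicate 1 (-0.20 and -0.24).

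Host and radiation were also fitted on the 4 pool means, each over both levels of the other factor. Radiation raised Tap1 by 1.28 ± 0.17 (adjusted p = 0.00327) and Nlrc5 by 1.04 ± 0.20 (adjusted p = 0.0298), and no member fell (background 1.55% higher and 0.353% lower). Without any one of the 8 arrays Nlrc5 was no longer past the threshold (0.95 to 1.13), and Tap1 was lost without 5 of them (1.26 to 1.30): both WT untreated arrays, WT irradiated replicate 1, TNFR KO untreated replicate 1 and TNFR KO irradiated replicate 2. In TNFR KO hosts Psmb9 was lower by -0.87 ± 0.19 (adjusted p = 0.00704) and Psmb8 by -0.74 ± 0.21 (adjusted p = 0.0252), and no member was higher (background 18.9% lower and 12% higher). Tapbp (0.47, adjusted p = 0.18) passed as higher with the filter at the 75th percentile (adjusted p = 0.019) and with limma trend (adjusted p = 0.00226). Psmb8 was lost without any array other than WT irradiated replicate 2 (-0.78 to -0.70), whereas Psmb9 passed in all 8 fits. The error of these fits comes from how far the hosts differ in their response, so members whose effects differ between hosts have a larger error here.

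Genes whose profile over the 8 arrays was most like the mean of the members were found by the root-mean-square distance between centred log2 signals, among 11335 genes that are not members. The nearest were Cited1 (0.0777), Ifi35 (0.0869), Esm1 (0.0872), Bst2 (0.0884) and Ablim1 (0.0943), followed by Gng4, Gm9222, Frrs1, Arntl and Jund. Cited1 read 3930 and 7339 in WT hosts and 3990 and 4989 in TNFR KO hosts, without and with radiation. Ifi35 read 7254 and 11750 in WT hosts and 7873 and 9774 in TNFR KO hosts. Of the members, Psmb10 was the nearest to their own mean (0.0614) and Tapbp the farthest (0.477).

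Among other class I and class I-like chains, 5 genes were tested and none was called for radiation in either host or for the difference between hosts' radiation effects. H2-M3, which presents formylated peptides, read 515 and 696 in WT hosts and 571 and 578 in TNFR KO hosts, without and with radiation. It rose by 0.42 in WT hosts (adjusted p = 0.00566), and the effects differed by -0.40 (adjusted p = 0.0357). Hfe, a class I-like regulator of iron uptake, fell without reaching 2-fold in both hosts (-0.24 and -0.32), and Cd1d1, which presents lipids, rose in TNFR KO hosts (0.59). Over both treatments Fcgrt, which encodes the neonatal Fc receptor, was higher in TNFR KO hosts (0.59, adjusted p = 0.0283). Mr1, which presents vitamin metabolites, was lower (-0.76, adjusted p = 0.0063). The background in that comparison was 12% higher and 18.9% lower.

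Of 17 other loading and processing genes tested, none was called for radiation in either host. Psme1, a subunit of the proteasome activator that interferon gamma induces, rose without reaching 2-fold in both, by 0.56 in WT hosts (adjusted p = 0.0027) and 0.44 in TNFR KO hosts (adjusted p = 0.00605), and was the 1 of the 17 that rose in either. Without the fold threshold 1 fell in WT hosts, Psme3, a subunit of another proteasome activator (-0.36, adjusted p = 0.0108). In TNFR KO hosts 5 fell: the chaperones Hspa5 (-0.54) and Canx (-0.23), Pdia3 (-0.35) and the peptidase genes Nrd1 (-0.40) and Blmh (-0.19). Of all genes tested, 12.1% rose and 13.4% fell in WT hosts, and 9.43% rose and 14.4% fell in TNFR KO hosts. Over both treatments 6 were lower in TNFR KO hosts and 1 higher. Those lower included the peptide-trimming enzymes Tpp2 (-0.96, adjusted p = 0.00205) and Erap1 (-0.95, adjusted p = 0.00432), the loading partner Pdia3 (-0.73, adjusted p = 0.00748) and the chaperone Canx (-0.52, adjusted p = 0.0342). Sec61a1, the translocon channel, was the higher one (0.54, adjusted p = 0.03). The background is that of the host difference above, 18.9% lower and 12% higher.

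Of 18 regulators of class I transcription tested, Irf7, an interferon-induced transcription factor, was called higher after radiation in WT hosts, and Relb, an NF-kB subunit, lower in TNFR KO hosts. Over all genes tested, 2.25% were called higher in WT hosts and 0.485% lower in TNFR KO hosts. Without the fold threshold 3 rose and 1 fell in WT hosts (background 12.1% and 13.4%). In TNFR KO hosts 3 rose and 5 fell (background 9.43% and 14.4%). Irf7 read 378 and 921 in WT hosts and 618 and 434 in TNFR KO hosts, without and with radiation. Its radiation effects differed by -1.73 (adjusted p = 0.00517). Relb read 193 and 262 in WT hosts and 584 and 271 in TNFR KO hosts, with a difference of -1.45 (adjusted p = 0.0297). Irf1, which binds interferon response elements, read 1118 and 1323 in WT hosts and 1368 and 1106 in TNFR KO hosts, with a difference of -0.54 (adjusted p = 0.0217). Over both treatments 4 regulators were lower in TNFR KO hosts, namely Nfyb, Rel, Ezh2 and Creb1 (-1.58 for Creb1, adjusted p = 0.000299), and Relb was higher. Of all genes tested, 18.9% were lower and 12% higher in that comparison.

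Interferon messages themselves were dim. Ifng read 5.2 and 13.2 in WT hosts and 27.8 and 17.1 in TNFR KO hosts, and Ifnb1 36.2 and 82.2 and 35.8 and 57.1; both, with Ifna2 and Ifna4, were below the level tested. Of 8 interferon receptor and signalling genes tested, Socs3, a feedback inhibitor of cytokine signalling, was called higher in WT hosts (1.22, adjusted p = 0.00254). It also rose in TNFR KO hosts (0.75, adjusted p = 0.0103) and over both hosts (0.98, adjusted p = 0.0192), and the difference between its effects missed the threshold (-0.47, adjusted p = 0.138). The receptor gene Ifnar1 fell in both hosts, by 0.55 in WT and 0.56 in TNFR KO hosts, and Jak1 fell in TNFR KO hosts, by 0.63. Over both treatments the receptor gene Ifngr2 was higher in TNFR KO hosts and the kinase genes Jak1 and Jak2 were lower (background 12% higher and 18.9% lower). Among receptors that read class I and ligands shown beside it, 3 of 12 genes on the array were tested. Pirb, a class I receptor of myeloid cells, read 64.1 and 169 in WT hosts and 125 and 68.6 in TNFR KO hosts, and its effects differed by -1.96 (adjusted p = 0.00659). Cd274, which encodes the checkpoint ligand PD-L1, read 221 and 308 in WT hosts and 268 and 195 in TNFR KO hosts, with a difference of -0.88 (adjusted p = 0.03). Cd8a lay between 236 and 325 and passed no test.

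Class I genes are expressed by most cells of a tumour, so markers of other cells are given beside them. The 10 macrophage markers summed to 6668 to 6791 per array in WT untreated, 13029 to 13194 in WT irradiated, 13784 to 14435 in TNFR KO untreated and 9366 to 9493 in TNFR KO irradiated tumours. For 8 of the 10 the radiation effects were called as lower in TNFR KO than in WT hosts (background 2.05%). Their median over the list was -1.28, against the members' -0.61. The 5 neutrophil markers on the array summed to 3580 to 4007, 23339 to 24173, 999 to 1036 and 1142.5 to 1142.6 in the same order of pools. The 4 pan-leukocyte markers summed to 1331 to 1482, 2749 to 2767, 2647 to 2662 and 1852 to 1885. The 7 fibroblast markers summed to 4719 to 4823, 7292 to 7325, 14801 to 15178 and 9972 to 9991, and the 7 endothelial markers to 1405 to 1471, 1715 to 1739, 2762 to 2773 and 2068 to 2225.

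The 5 keratinocyte markers summed to 262 to 316, 440 to 514, 2101 to 2373 and 642 to 652 in the same order of pools. The 5 skeletal muscle markers summed to 2778 to 2842, 755 to 937, 1036 to 1187 and 411 to 466, and the 3 erythroid markers on the array to 393 to 456, 1473 to 1569, 549 to 595 and 3875 to 4245. These sums put the TNFR KO untreated pool above the WT irradiated pool for keratinocytes, macrophages, fibroblasts, endothelium and skeletal muscle. Single markers had the opposite order: Cd14, Mrc1, Msr1 and Itgam of macrophages, Dcn, Lum and Pdgfra of fibroblasts and Myl1 of skeletal muscle. Cd14, for example, read 437 in the TNFR KO untreated and 2302 in the WT irradiated pool. The other markers of these lists had the order of the sums. The sums of the TNFR KO untreated pool lay below those of the WT irradiated pool for neutrophils, erythroid cells, pan-leukocyte markers and the natural killer and cytotoxic list. The pan-leukocyte list was split, with Laptm5 and Coro1a higher in the TNFR KO untreated pool and Ptprc and Cd52 lower. Slc4a1 of the erythroid list was also higher there. The skeletal muscle sum was lower and the erythroid sum higher after radiation in both hosts. Tapbp was the one member whose mean was also higher in the TNFR KO untreated than in the WT irradiated pool. Psmb8 and Psmb9 were the members whose means were lower in both TNFR KO pools than in both WT pools. The neutrophil sum and the natural killer and cytotoxic sum, given below, had this order too. Of the neutrophil markers, S100a8 and S100a9, the brightest, had it, and Mmp9, Csf3r and Cxcr2 did not. Of the natural killer and cytotoxic markers, Klrd1, Nkg7 and Gzmb had it, and Ncr1, Gzma, Prf1 and Eomes did not. The order was not confined to these lists: Mitf, Ptprc, Creb1, Tpp2, Erap1, Pdia3 and Canx, among others, had it. Lymphocyte markers were dim: 7 of 8 T cell markers, all 4 B cell markers and 6 of 7 natural killer and cytotoxic markers on the array were below the level tested. Cd3e read 21.3 to 49.5 over the 4 pools, and Prf1, which encodes perforin, 80.1 to 169. The sums of the natural killer and cytotoxic list were 347 to 389, 604 to 664, 243 to 297 and 331 to 346. The part of macrophages, neutrophils and other host cells in the members' values was not tested.

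**Figure D5:**
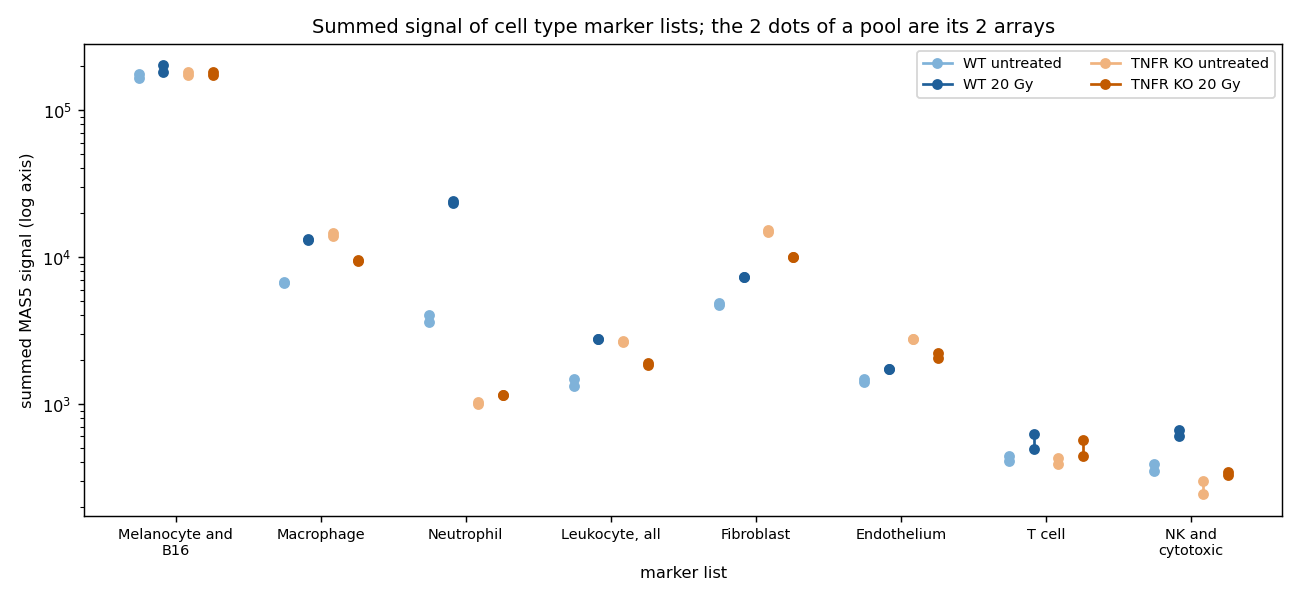
Summed MAS5 signal of 8 marker lists (log axis) in the 4 pools; the dots of a pool are its 2 arrays. The melanocyte sum, in which bright genes outweigh Mitf, lies between 165340 and 200950 on every array. Neutrophil markers are highest in WT irradiated tumours. The macrophage and fibroblast sums, though not each of their markers, are highest in TNFR KO untreated tumours.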

How the data were processed

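The 8 arrays (4 pools, 2 technical duplicates each) were read from a deposited table of signal intensity (MAS5, linear scale); this program is named, without a version, in the submitters' processing notes. Its 2%-trimmed mean was 500 on every array. Of 45101 probe sets, 64 were controls, 34945 named 1 gene, 932 several and 9160 none. Each gene was taken from its brightest probe set naming it alone and tested where its mean log2(signal + 16) reached 6.41 (signal 68.8), the median of non-control probe sets.

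Using R 4.3.3 and limma 3.58.1, host and radiation were fitted additively on the 4 pool means (1 residual and 9.52 prior degrees of freedom), and single-pool comparisons and the difference between radiation effects on the 8 arrays (4 residual and 1.99 prior degrees of freedom). Host differences are TNFR KO minus WT, radiation differences irradiated minus untreated. Tests were two-sided, with Benjamini-Hochberg adjustment over 11345 genes, and simulated data with known changes served to test the fits. For further probe sets, p-values were adjusted over all probe sets at the level tested, an alternative chosen after seeing the data. The members and gene lists were chosen with earlier results of these data known. Named from the lists were genes called in at least 1 comparison, with some others (H2-M3, Psme1, Irf1, Cd8a, Cd274, the interferon genes, Psmb5 to Psmb7 and genes past the threshold without reaching 2-fold) chosen after their values were seen. Alternatives were 2 other scalings, no pseudocount or 64, no filter or one at the 75th percentile, mean probe sets, limma trend, other fold thresholds, a replicate block and leaving out each array. Figures were drawn with matplotlib 3.10.9. Only 2 arrays per pool limit the precision.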

Additional observations from a re-analysis of the deposited data

Results flagged for a closer look

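For 7 of the 10 members the radiation effect differed between the hosts in a direct test of the difference, by limma over all 11345 genes, with the error taken from duplicate arrays only. Over all genes tested, 6.04% passed as lower and 3.52% as higher. The log2 effect in TNFR KO hosts minus that in WT hosts was -1.30 ± 0.10 for Tapbp, -0.92 ± 0.10 for Psmb8, -0.66 ± 0.11 for Psmb9, -0.64 ± 0.08 for Psmb10, -0.58 ± 0.08 for H2-K1, -0.57 ± 0.08 for H2-D1 and -0.53 ± 0.08 for B2m (adjusted p = 0.00306 to 0.0221). Leaving out any 1 array left 2 to 5 of the 7, and B2m was lost in all 8 of these fits. Tapbp was the one whose effect was past the threshold in both hosts with opposite signs. With 1 pool per group, differences between mice of a group were not measured. A check for single arrays far from the rest was not possible with 2 arrays per pool.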

How the results depend on the processing

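The radiation effects over both hosts were the least stable. Of the members, 2 rose in that comparison; the count was 0 with quantile normalization or no filter, 1 without a pseudocount, 4 with a pseudocount of 64, with a filter at the 75th percentile or with 8 arrays and no replicate block, 6 with limma trend, and 0 to 1 without any one array. Members lower in TNFR KO hosts over both treatments, 2 as reported, numbered 1 with quantile normalization or no pseudocount, 0 without a filter and 1 to 2 without one array. The 0 higher there became 1 (Tapbp) with the 75th percentile filter or limma trend.

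For radiation in WT hosts 4 were called, 2 with arrays centred on the median, 7 at 1.5-fold and 9 with no fold threshold. Tap1, the one called in TNFR KO hosts, became 0 with the mean of probe sets, which put Tap1 below the level tested, 2 at 1.5-fold and 3 with no fold threshold, the last becoming 1 to 3 without one array. In untreated tumours the 1 member called higher became 0 with arrays centred on the median or mean probe sets and 4 without a fold threshold, the last becoming 1 after centring. The 2 lower there without a fold threshold became 1 with quantile normalization, no filter or mean probe sets, and 1 to 2 without one array. In irradiated tumours 2 were called lower and 7 passed without a fold threshold. For the difference between radiation effects the 1 call became 2 with mean probe sets, 4 at 1.5-fold, 7 with no fold threshold and 1 to 2 without one array; those 7 became 2 without a filter and 2 to 5 without one array.

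Replicate numbers did not pair the arrays (deviations of same-numbered arrays correlated at -0.010 to 0.012). For radiation over both hosts, the fit on 8 arrays gave 4 members that rose and 3 with the replicate number as a block. The block changed no count of the other comparisons, with 4 for radiation in WT hosts and 7 for the difference without a fold threshold.

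Centring arrays on their median moved the median of all genes by -0.26 for radiation in WT hosts, -0.14 for radiation over both hosts, -0.20 for the untreated host difference and 0.23 for the difference between radiation effects. Values that changed sign were all uncalled. With centring these were the host difference of H2-K1 (-0.078), H2-D1 (-0.050) and Nlrc5 (-0.036), radiation over both hosts for Tap2 (-0.025), radiation in TNFR KO hosts for B2m (-0.027) and the untreated host difference of Tap1 (-0.10), Tap2 (-0.050), Psmb10 (-0.072) and B2m (-0.17). With quantile normalization they were the host difference of Tap2 (0.10) and H2-K1 (-0.025), radiation in TNFR KO hosts for Tap2 (0.0056), B2m (-0.12), H2-K1 (-0.028) and H2-D1 (-0.074), and the untreated host difference of B2m (-0.079). With mean probe sets they were radiation in TNFR KO hosts for B2m (-0.033) and H2-K1 (-0.068). Without one array the host difference ran from -0.093 to 0.034 for Tap2, -0.0055 to 0.013 for H2-K1 and -0.040 to 0.13 for Nlrc5, radiation in TNFR KO hosts from -0.18 to 0.065 for Tap2 and -0.0062 to 0.014 for B2m, and the untreated host difference of B2m from -0.0070 to 0.052. The causes were not tested.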
